A study of Arabidopsis thaliana with 12 samples.

Results

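CCL (AT3G26740, named CCR-like in the gene table) is 1 of 691 genes that had a probe of their own on single-channel arrays of 3439 probes hybridised with Arabidopsis thaliana total RNA. The gene was chosen from the readout: it stood among the named transcripts with the largest differences between the 2 groups of arrays, and its uneven difference between sets of arrays was already known. Its difference between groups and the spread of that difference are therefore described here without a test. Exactly 1 probe carried CCL alone, and 0 probes carried it together with other genes.

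All plants were wild type of the Columbia accession. In the staurosporine group, 6 arrays were made from plants kept for 4 h in 2 µM staurosporine and then for 4 h in 25 mM ascorbate at pH 5.5. In the water group, 6 arrays were made from plants that had water during the first 4 h and the identical ascorbate step afterwards. Every sample thus received ascorbate, and plants without it were not analysed here. The labels name neither the tissue nor the time of day at harvest, and they leave unsaid whether the 6 arrays per group stand for separate plants. Any spread between arrays may therefore be technical, and so may the p-values given for other genes.

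CCL is known for a short-lived messenger RNA. The plant circadian clock acts on this transcript after transcription as well as on its synthesis, so that its stability differs with the time of day, and its decay runs through a pathway that recognises a downstream instability element of the kind first described in SAUR transcripts. The encoded protein is the Arabidopsis counterpart of rice LIR1, a light-induced plastid protein that helps ferredoxin-NADP reductase to attach to thylakoid membranes. Staurosporine blocks many protein kinases with little selectivity. Ascorbate is a major soluble antioxidant of plants.

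CCL was lower on every staurosporine array than on any water array. The deposited values are relative linear intensities without an absolute unit. On that scale the CCL probe read 5.99, 5.61, 3.03, 3.97, 1.57 and 1.76 on staurosporine arrays 1 to 6, against 10.6, 10.5, 7.24, 7.49, 11.3 and 10.2 on water arrays 1 to 6. The highest staurosporine array, number 1, lay below the lowest water array, number 3. The groups did not overlap in this direction for 5.38% of all 3439 probes, and CCL belonged to that share by the way it was chosen.

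Quantile normalization, which gives every array the same distribution, kept the groups apart. Normalized intensities of CCL were 5.33, 5.33, 3.24, 4.31, 1.75 and 2.02 on staurosporine arrays 1 to 6, against 7.93, 7.56, 7.93, 7.56, 14.2 and 11.9 on water arrays 1 to 6. Equal values on different arrays arise because the method assigns values by rank, and the probe held rank 74 on staurosporine arrays 1 and 2, rank 52 on water arrays 1 and 3 and rank 54 on water arrays 2 and 4. On staurosporine array 5 it held rank 250, and on water array 5 rank 27. After normalization, groups failed to overlap in this direction for 7.68% of all probes.

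The mean normalized intensity was 3.66 ± 1.73 after staurosporine and 9.51 ± 3.06 after water. These are means and SDs of 3 values per group (n = 3), each the mean of arrays 1 and 2, 3 and 4, or 5 and 6, which are called number pairs here because the arrays of each were, on average, closer to one another than to the rest of their group. The fitted difference over 12 arrays was -1.46 ± 0.32 on the log2 scale (SE), or 2.75-fold lower after staurosporine. The SE of this fit takes the 12 arrays as separate samples, which they may not be. Taken by number pair, the log2 differences had a mean of -1.46 and an SD of 1.18 (n = 3). In that fit, made with limma, 22.9% of all probes passed an adjusted p of 0.05, with 11.8% of all probes lower and 11.1% higher. With number pairs averaged to 3 samples a group, 0.262% passed. The median probe had a log2 difference of -0.12, and CCL lay at -1.34 relative to it.

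**Figure D1:**
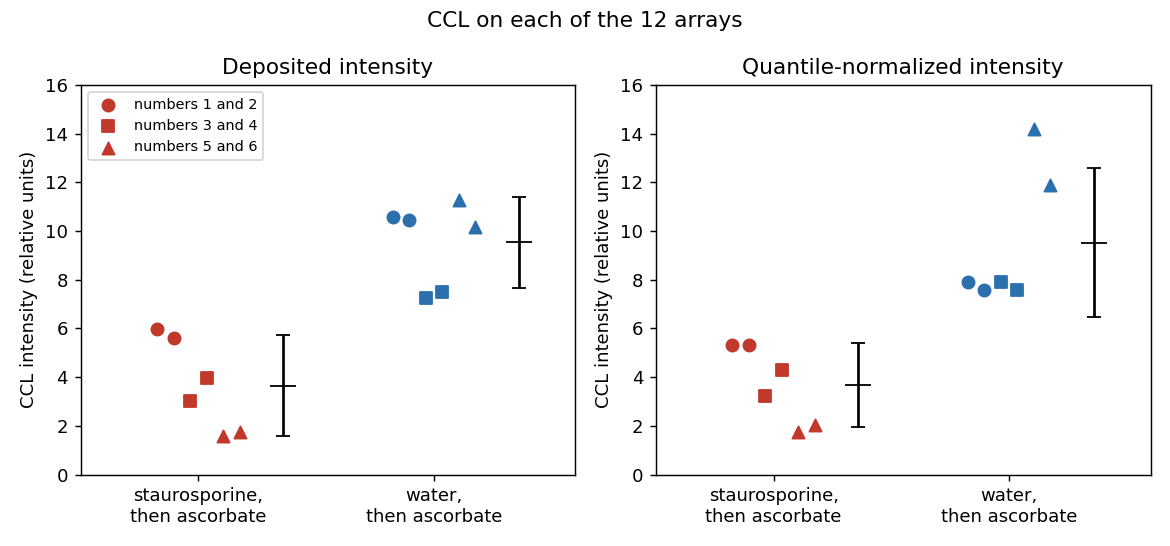
Intensity of the CCL probe in relative units on each of 12 arrays, as deposited in the left panel and after quantile normalization in the right one. Marker shapes give the number pair and the bars show mean ± SD of the 3 number-pair means. All 6 staurosporine arrays, at 1.57 to 5.99 as deposited, lie under all 6 water arrays, at 7.24 to 11.3, and the staurosporine arrays numbered 5 and 6 are the lowest.

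The size of the difference was uneven across same-numbered arrays. From number 1 to number 6, staurosporine minus water was -0.57, -0.51, -1.29, -0.81, -3.02 and -2.56 on the log2 scale after quantile normalization. CCL was thus 1.49-fold lower at number 1 and 8.13-fold lower at number 5. All 6 differences had the same sign, and those at numbers 5 and 6 were the largest.

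Averaged within number pairs, CCL was at 5.33 after staurosporine and 7.75 after water for numbers 1 and 2, a log2 difference of -0.54. For numbers 3 and 4 the levels were 3.78 after staurosporine and 7.75 after water, a log2 difference of -1.05. For numbers 5 and 6 they were 1.88 after staurosporine and 13.04 after water, a log2 difference of -2.79, or 6.92-fold. This number pair held both the lowest staurosporine level and the highest water level. Without numbers 5 and 6 of both groups, the fitted log2 difference was -0.84.

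The large difference at numbers 5 and 6 was present under each of 5 ways of treating the arrays, from -2.30 with cyclic loess to -2.80 with median centring. The order of the other number pairs was not stable. Numbers 1 and 2 had the smallest difference after quantile normalization, but with arrays centred on their medians numbers 1 and 2 were at -1.46 and -1.52, and numbers 3 and 4 at -1.18 and -0.82. The high water level at numbers 5 and 6 depended on the method as well. As deposited, water arrays 5 and 6 averaged 10.7 and water arrays 1 and 2 averaged 10.5. After centring on medians, water arrays 1 and 2 were the highest of that group.

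**Figure D2:**
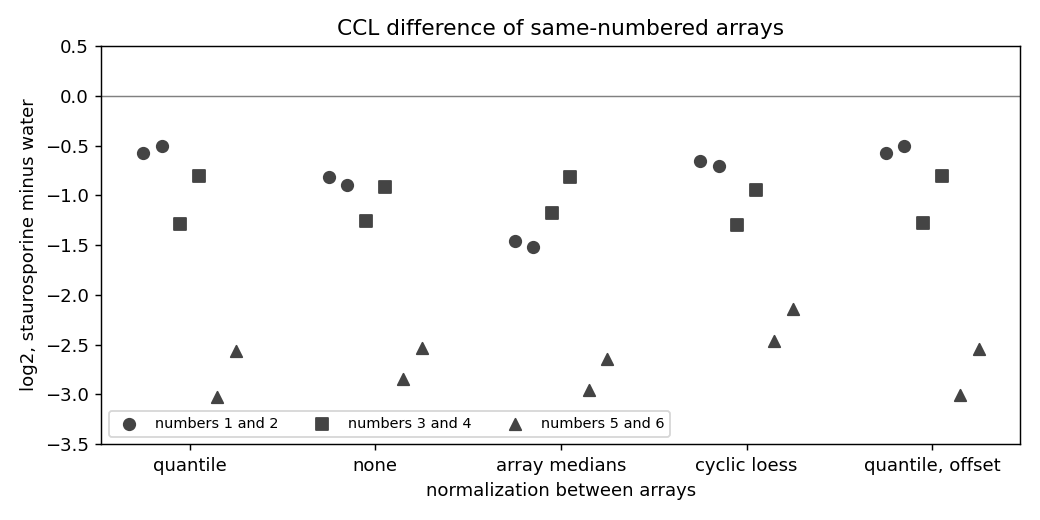
Log2 difference of CCL between same-numbered arrays, staurosporine minus water, under 5 normalizations between arrays. Each point is 1 number, and the marker shape gives its number pair. All points lie below 0, and numbers 5 and 6 lie lowest in each column, between -2.14 and -3.02.

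Array-wide intensity also differed between arrays. Deposited array medians ran from 0.252 to 0.486 over the 12 arrays, and between 10.3% and 15.2% of probes per array were listed at 0. The highest medians, 0.486 and 0.483, belonged to staurosporine arrays 5 and 6, where CCL was lowest. The CCL difference at these numbers was -2.80 after centring on medians, -2.69 without any further normalization and -2.30 with cyclic loess. The part of array-wide intensity in this difference was not tested.

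The spread of the CCL difference between number pairs was wide for a probe of its brightness. The 3 number-pair differences had an SD of 1.18 log2 units. It was set beside the 200 probes nearest in mean log2 intensity among the 2584 probes above 0 on all arrays. These 200 were not matched on the size of their difference, and 40 of them passed as lower after staurosporine. Their mean log2 intensity ran from 0.83 to 4.10 around a CCL mean of 2.47, with 155 of them dimmer and 45 brighter than CCL. Their median SD was 0.35, their 95th percentile 0.81 and their highest 1.15, so all 200 had a smaller spread than CCL. Without further normalization 199 of 200 had a smaller spread, with cyclic loess 195 and with arrays centred on their medians 184. Among all 2584 probes above 0 on all arrays, most of them dimmer, 96.6% had a smaller spread.

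**Figure D3:**
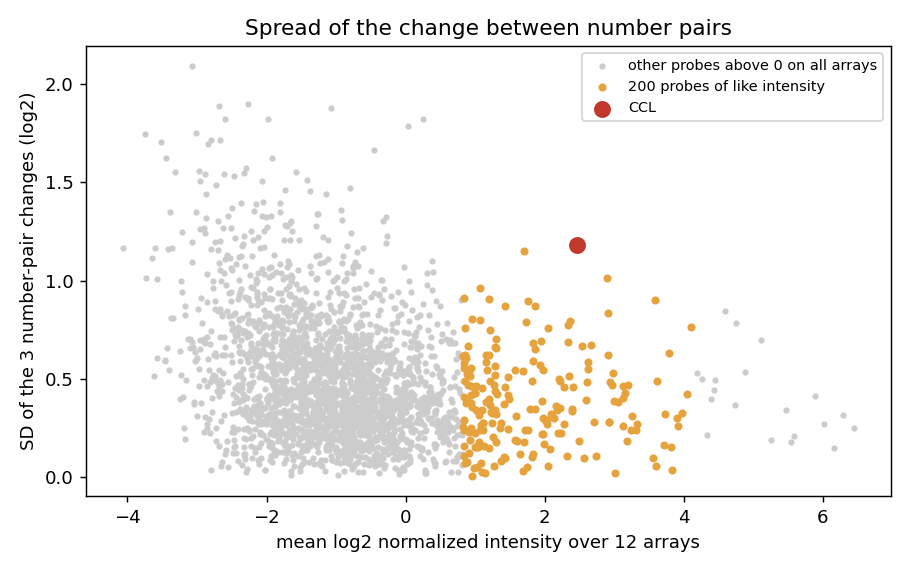
Spread of the staurosporine minus water difference, as the SD of the 3 number-pair differences in log2 units, against mean log2 normalized intensity for probes above 0 on all 12 arrays. CCL, at 1.18, lies above the 200 probes of like intensity, the highest of which is at 1.15, while dimmer probes reach higher values.

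CCL varied more between number pairs in the staurosporine group than in the water group, and both groups entered the spread of the difference. The 3 staurosporine number-pair means of CCL had an SD of 0.77 on the log2 scale, larger than in 196 of the 200 probes of like intensity. The 3 water number-pair means had an SD of 0.43, larger than in 154 of the 200. Across the other treatments of the arrays, the staurosporine SD of CCL exceeded that of 190 to 198 of the 200 probes, and the water SD that of 88 to 154. The mean gap between arrays within a number pair was smaller than these SDs, at 0.21 log2 units for CCL after staurosporine and 0.13 after water. The medians among the probes of like intensity were 0.11 after staurosporine and 0.10 after water. The CCL gap was larger than in 157 of the 200 after staurosporine and in 134 after water.

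Over all probes, a limma F-test of treatment by number pair passed at an adjusted p of 0.05 for 989 probes, 28.8% of the array. The count was 958 without further normalization, 636 with arrays centred on their medians and 631 with cyclic loess. It was 711 with an offset added to all values instead of the floor for low ones. With only the 2584 probes above 0 on all arrays, 689 passed. The error of this test is the gap between the arrays inside a number pair, which may be technical. These counts therefore do not measure the spread between separate plants. Nothing is read from this test for CCL, whose spread was known when it was chosen. Among the 407 probes that passed as lower after staurosporine, the largest difference was at numbers 5 and 6 in 47.9%, at numbers 3 and 4 in 30.5% and at numbers 1 and 2 in 21.6%. Of the 40 such probes of like intensity, 18 had their largest difference at numbers 5 and 6, as CCL did.

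Other transcripts shared the profile of CCL over the arrays. Pearson's r of log2 normalized intensity was taken over 12 arrays with each of 525 other single-gene probes above 0 on all arrays. The group difference and the likeness of number pairs enter every such r, so high values were common: the 5th percentile was -0.81 and the 95th 0.82. AT4G31060 was most like CCL with an r of 0.96, followed by AT3G02690 and AT2G46300 with 0.95 each, and by AT3G44020 and HEMA3 with 0.91 each. HEMA3 (AT2G31250) encodes a glutamyl-tRNA reductase of tetrapyrrole synthesis, and the other genes go by their locus names. After the group means were removed, r was 0.86 for AT4G31060, 0.85 for AT3G02690, 0.91 for AT2G46300, 0.79 for AT3G44020 and 0.92 for HEMA3. The likeness of number pairs still enters these values, and percentiles over the 525 probes were not computed for them.

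The 5 genes were picked for their likeness to CCL, so their group differences and number-pair patterns follow in part from that choice and are given as a description. Each had its largest difference at numbers 5 and 6, as CCL did. AT4G31060 had log2 differences of -0.66, -0.75 and -1.79 in the 3 number pairs. HEMA3 had -0.10, -0.09 and -1.83. Fitted over 12 arrays, the log2 differences of the 5 genes ran from -1.12 for AT3G02690 to -0.58 for AT3G44020. Across normalizations, r stayed between 0.79 and 0.97 for these 5 genes.

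The profiles most opposite to CCL were those of AT4G09620, AT5G03370 and AT3G52070, with r of -0.93, -0.92 and -0.91. Picked in the same way, they had log2 differences that were positive in each number pair and largest at numbers 5 and 6, at 2.30 for AT4G09620, 2.00 for AT5G03370 and 1.91 for AT3G52070. With arrays centred on their medians, r was -0.86 for AT5G03370, but -0.56 for AT4G09620 and -0.37 for AT3G52070.

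**Figure D4:**
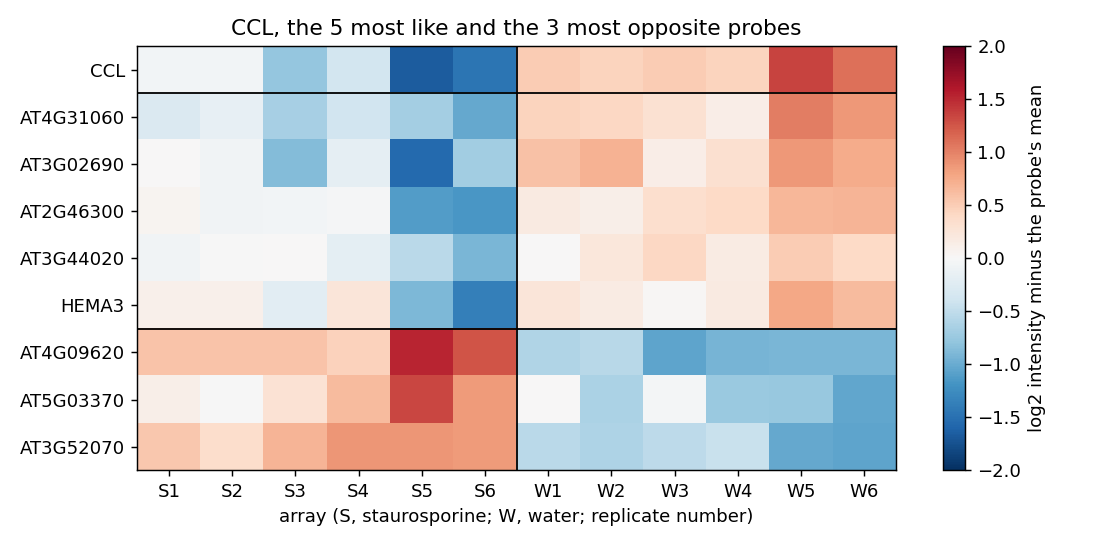
Log2 normalized intensity minus the probe's own mean for CCL, the 5 single-gene probes most like it and the 3 most opposite, on staurosporine arrays (S1 to S6) and water arrays (W1 to W6). Blue is below and red above the probe's mean, on a scale cut at -2 and 2. CCL and the 5 like probes are below their means at S5 and S6, where the 3 opposite probes are above theirs.

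Few genes of the clock and of messenger RNA decay could be read by name. Of 36 clock components, 1 had a probe of its own, and of 21 clock outputs other than CCL also 1. None of 28 factors of mRNA decay, none of 9 dark-induced genes and none of 6 partners of the LIR1 protein (ferredoxin-NADP reductases, their membrane tethers and ferredoxins) had one. TROL, the thylakoid rhodanese-like tether of the reductase, shared its probe with another gene and was not read.

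AT5G52660, the clock component with a probe of its own, was higher after staurosporine. The probe was dim, with a deposited value under the array median on all 12 arrays. Its normalized intensity was 0.214, 0.187, 0.277, 0.239, 0.126 and 0.196 on staurosporine arrays 1 to 6, against 0.148, 0.128, 0.166, 0.115, 0.0627 and 0.0616 on water arrays 1 to 6. The groups overlapped at staurosporine array 5, while the deposited values, 0.194 to 0.290 after staurosporine and 0.0593 to 0.159 after water, did not. The log2 difference was 0.92 ± 0.29 (limma adjusted p 0.0390), or 1.89-fold higher, and 0.53, 0.89 and 1.34 in the 3 number pairs. This call ended without any 1 of 9 arrays (the highest adjusted p was 0.0836) and with number pairs averaged (0.292). Among omissions of 1 array, it held only without staurosporine array 5 or water array 1 or 3.

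LHB1B2, a light-harvesting protein of photosystem II and the clock output with a probe of its own, was lower in each number pair. Its log2 difference was -0.65 ± 0.17 (limma adjusted p 0.0177), and 0.280 was the adjusted p with number pairs averaged. Unlike CCL, it had its largest difference at numbers 3 and 4, at -0.95. Its normalized intensity had an r of 0.70 with CCL over 12 arrays, against -0.63 for AT5G52660. Both values lie between the 5th and 95th percentiles of the 525 single-gene probes (-0.81 and 0.82). Green tissue markers with a probe of their own were LHB1B2 and the photosystem I subunit PSAN, 2 of 12 listed. Both gave signal above 0 on all 12 arrays, as did 2584 of all 3439 probes. PSAN passed as lower at -1.73 ± 0.13 (limma adjusted p 9.13e-06, and 0.0591 with number pairs averaged), and its r with CCL was 0.82. None of 8 root markers had a probe of its own. The part of these transcripts in the CCL difference was not tested, and in whole-plant or tissue RNA fewer cells that carry a transcript and less of it per cell cannot be told apart.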

How the data were processed

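For each of 12 arrays the deposited table gives linear intensities, 1 for each probe. How the authors made these intensities is not stated in the sources used here. Groups and replicate numbers came from the sample titles. Intensities were quantile normalized between arrays. Values at 0, or under the 1st percentile of an array's positive values, were set to that percentile, and log2 was taken. CCL was above 0 on all 12 arrays. The test was limma 3.58.1 (R 4.3.3), 2-sided and moderated by eBayes, and p-values were adjusted over 3439 probes after Benjamini and Hochberg (threshold 0.05). Fits were checked on simulated data in which all arrays were drawn independently. That check therefore does not cover the likeness of arrays within a number pair. The number of arrays limits precision.

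Probes were named through the platform annotation and the TAIR10.1 gene table: 692 carry 1 gene, 870 several and 1877 none, and 690 of the 692 matched. No array build is named, so no positions are given. Named genes are CCL, the listed genes with a probe of their own, and the 5 most like and 3 most opposite profiles. The gene, lists and tests were chosen with earlier results of these data known. Same-numbered arrays of the groups deviated together (r 0.297 to 0.545), and the numbers were taken as pairing them. This r was not computed for arrays of different numbers, so it does not show that same numbers are more alike. Arrays of a number pair had Spearman correlations of 0.889 to 0.987 (mean 0.945), and other arrays of a group 0.825 to 0.917 (mean 0.881).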

Additional observations from a re-analysis of the deposited data

How the results depend on the processing

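CCL was lower after staurosporine under all 25 alternatives tried, but for most of them the sign could not have changed. The groups did not overlap after quantile normalization, so leaving out or weighting arrays could alter only the size of the difference. The log2 differences ran from -1.84 without numbers 1 and 2 of both groups to -0.84 (1.79-fold) without numbers 5 and 6 of both groups. The latter was the only alternative to move it by more than the SD between arrays of a group (0.57). Leaving out 1 array in turn gave -1.59 to -1.28. With the replicate number as a block, or with number pairs averaged or blocked, the CCL difference was again -1.46. Balanced groups fix that value in advance, so it is no check. With the replicate block 809 probes passed instead of 788. Number pairs averaged gave 9 probes, averaged with a number-pair block 2, and the number pair as a random block 191. Without numbers 1 and 2 there were 473, without numbers 5 and 6 there were 377, and without any 1 array 614 to 751. Of the called probes, 48.4% were higher, or 40.3% with arrays centred on their medians and 60.6% without further normalization, where the median difference of all probes was 0.19 and CCL lay at -1.73 relative to it. The share of like probes with a smaller spread than CCL was 92% with arrays centred on their medians and 97.5% with cyclic loess, and 636 and 631 probes passed the test of treatment by number pair there. Of the 3 listed genes called, 0 passed in limma with number pairs averaged, where 0.262% of all probes passed. In that fit 1 of the 3 had an unadjusted p under 0.05, and the share of all probes under that value was not computed. Refits of these 3 genes under every setting were added after the data were seen. Arrays of a number pair may not be independent, so counts over 12 arrays are less certain than the averaged ones.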
